A study of Mus musculus with 12 samples.

Results

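Broad wild-type H3K27ac domains are the widest autosomal peaks of histone H3 lysine 27 acetylation in the distal forelimb bud of E11.5 wild-type mouse embryos. They were chosen by width alone, as every autosomal peak of the wild-type H3K27ac list spanning 5000 bp or more. This gave 599 domains of 31220 autosomal peaks and of 31933 peaks in all. They made up 1.92% of the autosomal peaks and 7.50% of their summed width (4.39 Mb), with a median width of 6160 bp and a range of 5001 to 54347 bp. Width and the wild-type H3K27ac score therefore describe the selection and are not results about it. Many peaks of the list share a score of 3100, and 493 domains (82.3%) stood at that value or above.

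H3K27ac marks active promoters and enhancers, and broad stretches of it are known from gene clusters and from groups of neighbouring enhancers that act in one tissue. HOXA13 and HOXD13 are related homeodomain proteins that bind DNA in the cells of the future hand or foot. They act in overlapping ways and are needed for digits to form. H3K27me3 is placed on the same lysine by Polycomb repressive complex 2 and marks silenced developmental genes. A single histone tail cannot carry both marks on that lysine, so overlap in a whole tissue can come from different alleles or cells.

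Each profile came from 1 chromatin immunoprecipitation library. H3K27ac, H3K27me3, HOXA13 and HOXD13 were profiled in E11.5 distal forelimb buds of wild-type embryos of a mixed C57BL/6 and CD1 background. Both histone marks were also profiled in Hoxa13-/-;Hoxd13-/- embryos of the same background and stage, called the double mutant here. Their Hoxa13 allele carries a neomycin cassette in the coding region, and their Hoxd13 allele a lacZ reporter in the first exon; both are present in every cell of the embryo. H3K27me3 at E10.5 came from forelimb buds of the CD1 strain, with an antibody from another supplier, so stage, strain, limb part and antibody cannot be told apart in that comparison. HOXA13 chromatin was cross-linked with disuccinimidyl glutarate in addition to formaldehyde. The labels do not state whether embryos were pooled.

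With 1 library per group no test between genotypes or stages was possible, and no p-value is given. Read depth is unknown, and a peak missing from 1 list may reflect depth, enrichment or the mark itself, which cannot be told apart here. In bulk tissue, fewer cells carrying a mark and less of it per cell cannot be told apart either. The autosomal double-mutant H3K27ac list was longer than the wild-type list (37433 against 31220 peaks, 73.2 against 58.5 Mb). The double-mutant H3K27me3 list was shorter (18973 against 19624 peaks, 60.0 against 74.3 Mb). The mutations themselves could not be checked from peak lists. All intervals below are 95% intervals for the counting of peaks, not for the spread between embryos. Positions are mm9 and count from 1; genes were not assigned, because the gene models at hand are of GRCm38.

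HOXA13 and HOXD13 peaks lay in most domains. A HOXA13 peak overlapped 484 domains (80.8%, against 34.6% of all autosomal wild-type H3K27ac peaks), and a HOXD13 peak overlapped 498 (83.1%, against 30.0%). At least 1 of both factors was present in 526 domains (87.8%, Wilson interval 84.9 to 90.2%), against 38.2% of all peaks. Both were present in 456 (76.1%, against 26.4%). HOXA13 without HOXD13 was found in 28 domains and HOXD13 without HOXA13 in 42, and 73 domains had neither. A wide peak has more room for a factor peak, so these shares rise with width by construction, and the density per length below is the fairer measure.

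Counted as peak centres per length, the domains did not stand far apart from all H3K27ac peaks for HOXA13 and were denser for HOXD13. They held 1.93 HOXA13 peak centres per 10 kb (849 centres) and 1.88 HOXD13 centres per 10 kb (826 centres). Over all autosomal peaks the densities were 1.81 and 1.55 per 10 kb. For HOXA13 the density was 2.08 per 10 kb in peaks under 1000 bp and 2.02 in domains of 10000 bp or more, with lower values between. For HOXD13 it was 1.55 in the narrowest class and 1.99 in the widest. The share of peaks with either factor rose over the same classes from 28.2% to 97.3%. A different picture came from peaks under 5000 bp with a score of 3100 or more, 4074 in number. These held 1.17 HOXA13 and 1.16 HOXD13 centres per 10 kb, lower than in the domains, and 39.9% of them had a peak of either factor. The 493 domains at that score held 1.91 HOXA13 and 1.88 HOXD13 centres per 10 kb. At that score the domains were thus denser in factor peaks than narrower peaks. All 599 were about as dense in HOXA13 peaks as H3K27ac peaks in general, and denser in HOXD13 peaks. Length under peaks of either factor rose from 22.0% in peaks under 1000 bp to 31.3% at 3000 to under 5000 bp. In domains of 10000 bp or more it was 45.3%.

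**Figure D1:**
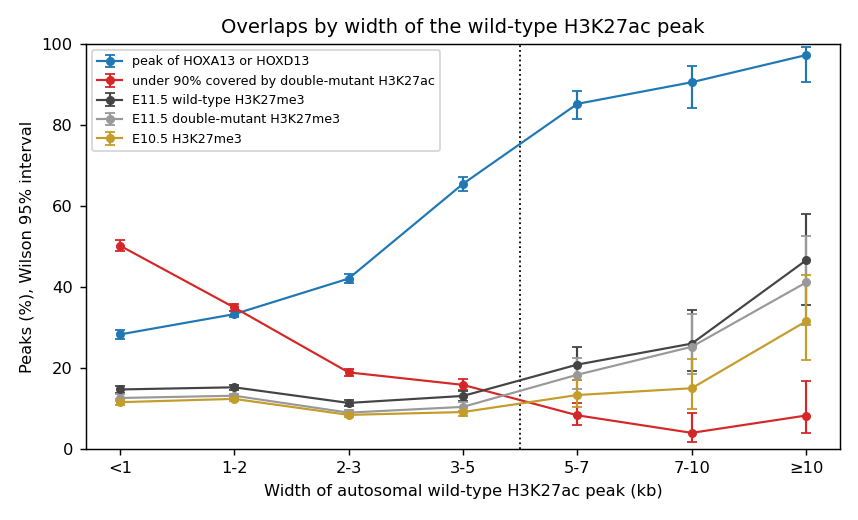
Share of autosomal wild-type H3K27ac peaks (vertical axis, percent, with Wilson 95% intervals) by peak width (horizontal axis, kb) for 5 overlaps; the dotted line marks the 5 kb that defines the domains. The share with a HOXA13 or HOXD13 peak climbs from 28.2% to 97.3%, the share under 90% covered in the double mutant falls from 50.2% in the narrowest class to 3.94% at 7 to 10 kb and is 8.22% at 10 kb or more, and H3K27me3 overlap in wild type reaches 46.6% in domains of 10 kb or more.

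Many domains held several peaks of each factor. At least 2 HOXA13 peaks were present in 243 domains (40.6%, against 2.31% of all autosomal peaks) and 2 or more HOXD13 peaks in 222 (37.1%, against 1.58%), shares that depend on width by construction. The most common number was 1, found in 241 domains for HOXA13 and in 276 for HOXD13, and 14 was the highest number for either factor. The counts of both factors were equal in 386 domains (64.4%), higher for HOXA13 in 118 and higher for HOXD13 in 95. As a description over the 599 domains, Spearman's rho between both counts was 0.74, and between domain width and the summed count it was 0.39; both counts grow with the width they share. No domain other than the 2 widest held more than 11 factor peaks.

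**Figure D2:**
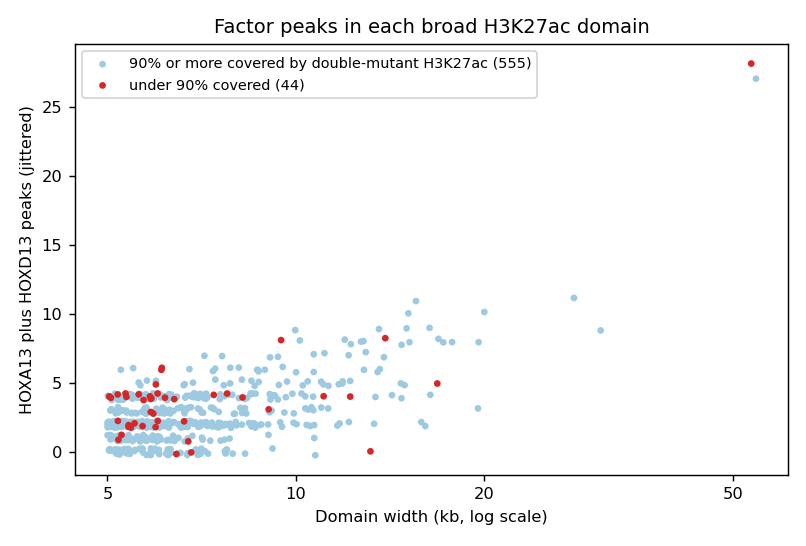
Each point is 1 of the 599 domains, with its width (horizontal axis, kb, log scale) and the sum of its HOXA13 and HOXD13 peaks (vertical axis, points shifted by at most 0.25 to separate them). The domains with 28 and 27 peaks, on chromosomes 2 and 6, stand alone; the 44 domains under 90% covered by double-mutant H3K27ac (red) are spread over the range of widths.

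Where HOXA13 and HOXD13 peaks overlapped they were merged into 1 site, and 915 sites had their centre in a domain. Of these sites 73.8% carried both factors, 12.7% HOXA13 alone and 13.6% HOXD13 alone. The 10677 sites in narrower autosomal peaks carried both factors in 67.3%, HOXA13 alone in 23.1% and HOXD13 alone in 9.57%. The HOXA13-only share was thus lower in the domains than in all narrower peaks together, but it varied with width among those. Counted by H3K27ac peak, HOXA13 without HOXD13 was found in 1330 of 5055 peaks of 1000 to under 2000 bp with either factor. At 3000 to under 5000 bp it was found in 215 of 1745, and in domains of 5000 to under 7000 bp in 24 of 340. These counts of H3K27ac peaks are not on the same scale as the shares of sites. Factor peaks in domains also had higher scores. The median HOXA13 score was 203 in domains, 171 in narrower H3K27ac peaks and 111 outside H3K27ac. For HOXD13 these medians were 241, 166 and 117. Sites were rare near the ends of the domains: 7.76% of site centres lay within 10% of the domain width from the nearer edge, while each further step of 10% inwards held between 21.5% and 24.5%. Together the factor peaks covered 38.3% of the domains' length.

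Loss of both factors left nearly all domain length within called H3K27ac. Every domain overlapped a double-mutant H3K27ac peak; 0 of 599 without one allows a share of up to 0.501% (3 counts of the total). Over all autosomal peaks 15.1% had no such overlap, and at 3000 to under 5000 bp, the nearest class, 1.24%. The median domain was 100% covered, and 334 domains (55.8%) were covered in full, against 40.0% of all peaks. Coverage was under 90% in 44 domains (7.35%, interval 5.52 to 9.72%), against 31.7% of all autosomal wild-type peaks. It was under 50% in 3 domains (0.501%), against 16.8%. These shares move with peak width. At 3000 to under 5000 bp, 15.8% of peaks were under 90% covered and 2.89% under 50%. When peaks less than 1000 bp apart were joined first, a larger set of 989 regions met the width rule, and 21 of them (2.12%) were under 50% covered. Of all domain bases 97.1% were covered.

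The score of the wild-type peaks moved with this result. Narrower peaks with a score of 3100 or more were covered over 97.2% of their bases, 6.505% of them were under 90% covered, and 1 of 4074 was under 50%. The first 2 values are close to those of the domains, while the share under 50% is lower than their 3 of 599. Among the domains themselves, 29 of the 493 with that score (5.88%) were under 90% covered and 2 were under 50%, against 15 of the 106 with a lower score under 90% (14.2%). The part of peak strength in the high coverage was not tested further.

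**Figure D3:**
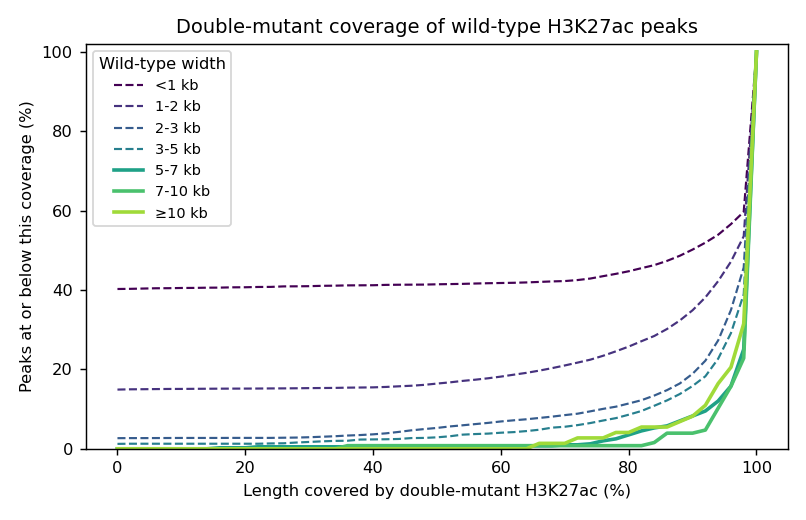
For each width class of autosomal wild-type H3K27ac peaks, the share of peaks (vertical axis, percent) whose length was covered by double-mutant H3K27ac up to the value on the horizontal axis (percent). The 3 solid curves are the domain classes, which stay near 0 until about 80% coverage, whereas the dashed curve for peaks under 1 kb starts near 40%, the peaks with no coverage at all.

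The comparison in the other direction was less even. Under the same width rule the double mutant had 1231 autosomal H3K27ac peaks. Their median coverage by wild-type H3K27ac was 83.0%; 849 (69.0%) were under 90% covered, 118 (9.59%) under 50% and 11 had no wild-type overlap. Of them 550 (44.7%) overlapped a wild-type domain, and 462 (37.5%) spanned more than 1 wild-type peak. The domains were correspondingly overlapped by double-mutant peaks that were wider: in 454 domains (75.8%) 1 such peak was at least as wide as the domain, and the summed width of the overlapping mutant peaks was 1.10 times the domain width at the median. The longer mutant list moves with the high coverage of the domains; when it was reduced by score to the 31220 peaks of the wild-type list, 96.9% of domain bases were covered and 46 domains were under 90%, in place of 97.1% and 44. Wider mutant peaks stayed in that reduced list, and their part was not tested. Of the 11 at 0% in wild type, the 3 widest were chr2:75243207-75249771 and chr13:56692950-56699216, without a factor peak, and chr6:50942745-50948129, with 2 peaks of each factor.

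Bases of the domains that were missing in the double mutant lay mostly in uncovered stretches that reached a domain end. In total 126.2 kb were uncovered, 97.5 kb of them in stretches touching an edge and 28.8 kb in 84 interior gaps, which split 70 domains (11.7%). A stretch touching an edge can run far inwards. At chr4:149765350-149773567, a domain of 8218 bp, 1 such stretch was 4359 bp long. A site centre lay inside 7 of the 84 interior gaps (8.33%). That count leaves out the stretches touching an edge, which held most uncovered bases. Some of those stretches held factor peaks, as described below for chromosome 2. In domains with a factor peak, 97.5% of bases under factor peaks and 96.6% of bases outside them were covered. Among the 236 such domains that were not covered in full, coverage was lower outside the factor peaks in 186 and lower under them in 50. Sites are rare near domain ends, and most uncovered bases lay in stretches that reached an end. Position and factor binding therefore cannot be told apart in these values. Of the 915 sites in domains, 895 (97.8%) had their centre in double-mutant H3K27ac, against 75.3% of sites in narrower peaks and 98.7% of the 1716 sites in narrower peaks with a score of 3100 or more. For sites in domains with HOXD13 alone it was 124 of 124, with HOXA13 alone 112 of 116, and with both factors 659 of 675.

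The share of domains under 90% covered did not rise steadily with the number of factor peaks. Coverage under 90% was found in 3 of 73 domains without a factor peak (4.11%), in 3 of 61 with 1 peak (4.92%) and in 9 of 192 with 2 (4.69%). It was found in 22 of 192 with 3 or 4 peaks (11.46%), in 6 of 70 with 5 to 8 (8.57%) and in 1 of 11 with 9 or more (9.09%). More than 1 double-mutant peak lay over 70 domains (11.7%, against 2.24% of all autosomal peaks). In the same 6 classes these shares were 5.48%, 1.64%, 8.85%, 13.02%, 25.7% and 45.5%. Median width rose too, from 5866 bp without a factor peak to 9603 bp with 5 to 8, and a wider domain has more room for a gap. Among domains under 7000 bp, where median widths were close (5681, 5712 and 5815 bp), coverage under 90% was found in 2 of 59 without a factor peak (3.39%, interval 0.935 to 11.54%). It was found in 28 of 280 with both factors (10.0%, interval 7.01 to 14.1%) and in 16 of 84 with at least 2 peaks of each (19.05%, interval 12.1 to 28.7%). The last of these classes is part of the one before it. Domains of 1 library pair are not replicates of a genotype, so the shares are a description and their difference was not tested. Over all 599 domains, Spearman's rho between the share of length under factor peaks and double-mutant coverage was -0.15, a weak relation across regions of the same libraries.

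The 2 domains least covered by double-mutant H3K27ac carried high-scoring factor peaks. At chr6:53378310-53383344 (5035 bp, wild-type H3K27ac score 1072) double-mutant H3K27ac covered 14.5%, in 1 peak with a score of 54.4. It held 2 HOXA13 peaks, with scores of 1211 and 58.3, and 2 HOXD13 peaks, with scores of 1097 and 87.8. At chr2:74454751-74460274 (5524 bp) coverage was 20.3%, in 1 peak with a score of 124. A single HOXA13 peak (score 3025) and a single HOXD13 peak (score 3100) lay over 81.6% of this domain. In both domains the highest-scoring peak of each factor lay far above that factor's median score in domains. Such scores also occurred in well-covered domains. The domain at chr6:52165178-52219524, 98.9% covered, held HOXA13 and HOXD13 peaks with scores of 3100. How many well-covered domains hold factor peaks of such scores was not counted. Scores from different lists are not amounts of a mark. At chr4:149765350-149773567 (8218 bp) coverage was 36.0%, with 2 HOXA13 peaks (scores 347 and 107) and 2 HOXD13 peaks (scores 509 and 52.9). None of these 3 domains overlapped H3K27me3 in any of the 3 lists.

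Next in order were chr7:128176931-128181993, with 58.6% coverage and 2 peaks of each factor, and chr1:19196815-19209027, with 65.6% coverage, 1 HOXA13 and 3 HOXD13 peaks. The domain on chromosome 1 was covered in full by H3K27me3 in all 3 lists, unlike the 4 before it, which had none. Of the 73 domains without a factor peak, a smaller set in which extreme values are less likely to occur than among the other 526, the least covered were these: chr7:52958704-52965506 was covered to 80.7%, chr11:69372140-69378582 to 82.2% and chr3:99054903-99068057 to 89.99%. The last of these was also covered in full by H3K27me3 in both E11.5 genotypes, and to 80.0% at E10.5.

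The 2 widest domains also held the most factor peaks, and the mark that differed most between the genotypes was not the same in both. They lie on chromosomes 6 and 2, the chromosomes on which RefSeq lists Hoxa13 and Hoxd13, respectively; where these genes lie relative to the domains was not determined.

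The domain at chr2:74486156-74539552 (53397 bp) held 14 HOXA13 and 14 HOXD13 peaks, which lay over 64.6% of it. Double-mutant H3K27ac covered 71.9% in 5 peaks. The uncovered 15012 bp lay almost wholly at the lower-coordinate end, in a stretch of 7796 bp from the edge and gaps of 665, 908 and 5638 bp. Between them lay 4 mutant peaks of 663 to 2347 bp, and 1 mutant peak of 48453 bp covered the rest. Within the first of these stretches were HOXA13 peaks of 4278 bp (score 609) and 1427 bp (score 194), each matched by a HOXD13 peak. This domain made up 1.22% of the domains' summed width and 11.9% of their uncovered bases. H3K27me3 covered it in full in both genotypes and to 91.9% at E10.5. Its neighbour chr2:74541475-74547255, 1922 bp further on, with 3 HOXA13 and 2 HOXD13 peaks, was 100% covered by double-mutant H3K27ac. Together with the domain at chr2:74454751-74460274 they put the most uncovered domain bases of any 1 Mb window, 19.4 kb, between 74 and 75 Mb of chromosome 2. The next window, on chromosome 13 between 23 and 24 Mb, had 5.65 kb.

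The domain at chr6:52165178-52219524 (54347 bp) held 14 HOXA13 and 13 HOXD13 peaks over 65.5% of its length. Double-mutant H3K27ac covered 98.9%, leaving a single gap of 615 bp. The change there was in H3K27me3, which covered 99.8% of it in wild type but 16.5% in the mutant, and 72.6% in 8 peaks at E10.5. In wild type 2 H3K27me3 peaks met within the domain, chr6:52141834-52210460 (score 486) and chr6:52210572-52230844 (score 3100). The second had a double-mutant counterpart, chr6:52210562-52229039 (score 3100). The first, 68627 bp wide with the lower score, had none. It also held the neighbouring domain chr6:52152354-52164565 (12212 bp, 3 HOXA13 and 2 HOXD13 peaks). H3K27me3 covered that domain to 100% in wild type, 0% in the double mutant and 4.45% at E10.5. Double-mutant H3K27ac covered it to 100%. Both changes in H3K27me3 coverage thus come from the same absent peak. In the double mutant 1 H3K27ac peak of 60515 bp, chr6:52149921-52210435, spanned that neighbour whole and the wide domain up to its gap, ending close to where the mutant H3K27me3 peak began. The window from 52 to 53 Mb of chromosome 6 held the most domains of any 1 Mb window, 10, with 1.88 kb of 117.3 kb uncovered.

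**Figure D4:**
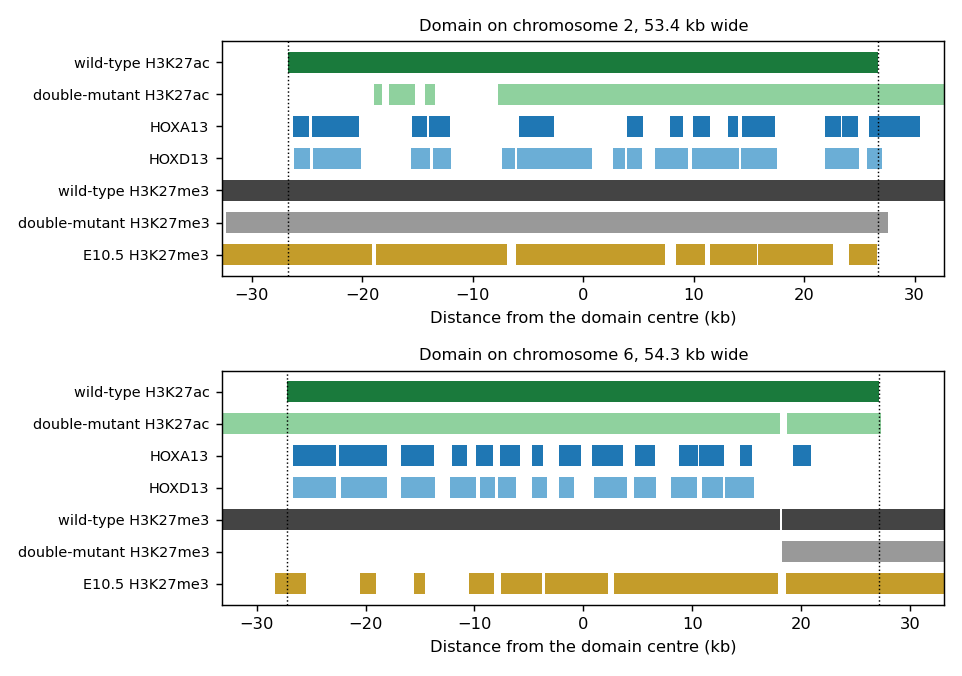
Called peaks (bars) of the 7 lists over the 2 widest domains, placed by distance from the domain centre (kb), with dotted lines at the domain edges. On chromosome 2 double-mutant H3K27ac is missing or broken up over the left part while H3K27me3 spans the domain in both genotypes. On chromosome 6 double-mutant H3K27ac is called over nearly all of the domain and double-mutant H3K27me3 over 16.5% of it, at its right end.

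The other domains among the 5 widest were almost wholly covered by double-mutant H3K27ac. The one at chr7:149722639-149753321 (30683 bp, 6 HOXA13 and 3 HOXD13 peaks) was covered to 99.5% and had no H3K27me3. At chr8:59789826-59817641 (27816 bp, 6 and 5 peaks) coverage was 97.6%, with H3K27me3 over 100% in both E11.5 genotypes and 95.6% at E10.5. At chr5:120276247-120296244 (19998 bp, 5 peaks of each factor) it was 96.8%, with H3K27me3 over 99.1% in wild type, 94.8% in the double mutant and 43.6% at E10.5. The remaining domain among the 5 with most factor peaks, chr3:86341217-86356769 (7 HOXA13 and 4 HOXD13 peaks), was covered by H3K27ac in full, and by H3K27me3 to 49.8%, 46.3% and 10.7% in the same order.

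H3K27me3 overlapped a minority of domains, more often the wide ones. In wild type it overlapped 150 domains (25.04%, interval 21.7 to 28.7%), against 14.2% of all autosomal H3K27ac peaks. In the double mutant it overlapped 135 (22.5%, against 12.0%) and at E10.5 it overlapped 95 (15.9%, against 11.1%). Measured by length, which does not grow with width by construction, H3K27me3 covered 19.7% of domain bases in wild type, 16.1% in the double mutant and 11.0% at E10.5. Over all peaks these were 9.82%, 7.87% and 5.68%, and over the narrower peaks with a score of 3100 or more 4.55%, 3.26% and 1.85%. The excess lay in the widest domains: in wild type 10.8% of bases were covered in domains of 5000 to 7000 bp, 17.5% in those of 7000 to 10000 bp and 41.1% in those of 10000 bp or more. Of the 73 domains in the last class, 34 (46.6%) overlapped wild-type H3K27me3. At least 50% of the length was covered in 84 domains in wild type, in 68 in the double mutant and in 41 at E10.5 (14.02%, 11.35% and 6.84%). Over all autosomal peaks these shares were 10.1%, 8.20% and 5.74%. Full coverage was found in 31, 24 and 7 domains (5.18%, 4.01% and 1.17%), lower shares than the 6.32%, 4.78% and 1.72% of all peaks. A narrow peak is more easily covered in full, so this comparison depends on width by construction. In wild type the share was 7.39% in peaks of 1000 to under 2000 bp and 2.18% at 3000 to under 5000 bp. In domains it was 2.76% at 5000 to under 7000 bp, 5.51% at 7000 to under 10000 bp and 17.8% at 10000 bp or more. The domain at chr2:33483298-33502836 (19539 bp, 1 HOXA13 and 2 HOXD13 peaks) was covered in full in both E11.5 lists and to 75.2% at E10.5. Double-mutant H3K27ac covered 96.9% of it.

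Most overlaps with H3K27me3 were shared between lists. In 436 domains no list had H3K27me3, in 77 all 3 had it, and in 54 both E11.5 genotypes had it without E10.5. Of the 95 domains with H3K27me3 at E10.5, 84 had it in E11.5 wild type as well, and 9 had it at E10.5 alone. Domains with and without wild-type H3K27me3 had close shares of factor peaks and of low double-mutant H3K27ac coverage, each within the counting interval of the other. A peak of either factor was found in 87.3% and 88.0%, both factors in 76.7% and 75.9%, and coverage by double-mutant H3K27ac under 90% in 7.33% and 7.35%. Of the 11 domains with 9 or more factor peaks, 9 had wild-type H3K27me3, but these had a median width of 16353 bp.

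Between the E11.5 genotypes H3K27me3 coverage was lower in the double mutant, and the ratio of summed bases in domains was close to that over H3K27ac peaks in general. The bases covered in the mutant were 0.820 times those covered in wild type within domains and 0.802 times over all autosomal peaks. The ratio in domains includes both chromosome 6 domains under the same absent wild-type peak. One of them is 54347 bp wide (99.8% to 16.5%) and the other 12212 bp (100% to 0%). The ratio without them was not computed, so the likeness to peaks in general may rest on that locus. Of 154 domains with H3K27me3 in either genotype, coverage was lower in the double mutant in 111 (72.1%), higher in 20 (12.99%) and equal in 23. Over the 4606 such autosomal peaks it was lower in 56.1%, higher in 12.7% and equal in 31.2%. Equal values were thus more common over all peaks than in domains. A narrow peak is more easily covered in full in both genotypes, so the shares with lower coverage depend on width. It was lower by at least 25 percentage points in 20 domains and higher by that much in 1. It was lower by at least 50 points in 4 and higher in 0. The shorter mutant list of H3K27me3 peaks moves in the same direction, and its part was not tested. The wild-type H3K27me3 peaks that were lost had low scores: of 194 such peaks over domains, the 36 covered to less than 10% in the double mutant had a median score of 137 and a highest score of 628, and the other 158 had a median score of 2258.

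**Figure D5:**
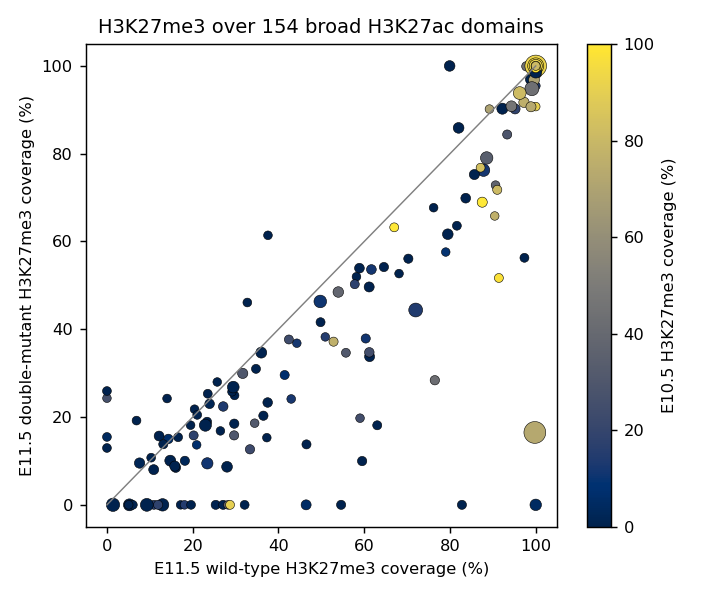
H3K27me3 coverage (percent of domain length) in E11.5 wild type (horizontal axis) and in the double mutant (vertical axis) for the 154 domains with H3K27me3 in either; colour gives coverage at E10.5 and point area grows with domain width. Most points (111) lie below the diagonal line of equal coverage, and the large point at the lower right is the widest domain, at 99.8% and 16.5%.

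H3K27me3 was called in wild type only in 19 domains (3.17%, against 2.77% of all autosomal peaks), and in the mutant only in 4 (0.668%, against 0.548%). Among the 150 domains with wild-type H3K27me3 these 19 made up 12.7%. Over all autosomal peaks with it the share was higher, 19.5% (864 of 4435). A wider peak has more room for a remaining overlap, so that comparison depends on width too. The 5 widest of the 19 included the domain at chr6:52152354-52164565 described above. The others were chr14:29313646-29329998 (9.29% of its length in wild type), chr3:29903292-29918318 (12.98%), chr2:17960358-17973865 (5.23%) and chr2:172758425-172766755 (46.5%). Each had peaks of both factors, and double-mutant H3K27ac covered at least 95.8% of its length. The largest of the 4 mutant-only overlaps was 25.9% of the domain at chr13:60366883-60372512, and the domain at chr7:143407869-143412915 followed with 24.3%; the other 2 had 15.5% and 12.96%. The domains with falls of 50 points or more were named after their values were seen: beside both on chromosome 6 they were chr3:145311050-145317301, from 82.8% to 0%, and chr7:146203239-146209583, from 54.6% to 0%. Both were covered to at least 95.3% by double-mutant H3K27ac.

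Every autosome held domains. They made up between 1.25% of the H3K27ac peaks of a chromosome (chromosome 10) and 2.64% (chromosome 18), with 2.05% on chromosome 2, which had the most domains (53) and the most peaks (2583). The nearest other domain lay 220 kb away at the median, 76 domains had another within 10 kb, and 243 (40.6%) had one within 100 kb.

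The width threshold fell in a continuous range. Just inside it were chr14:22491669-22496669 (5001 bp), chr4:97888226-97893227 (5002 bp) and chr19:5487175-5492176 (5002 bp), with double-mutant H3K27ac over 100%, 99.7% and 100%. Just outside were chr17:46991644-46996639 (4996 bp), chr5:115970064-115975056 (4993 bp) and chr8:46019752-46024740 (4989 bp), with 90.01%, 100% and 100%.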

How the data were processed

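Each of 7 immunoprecipitated libraries has a deposited list of peaks with 5 columns; 5 input libraries were not used here. The submitters' processing notes name Bowtie 0.12.7, MACS 1.4 and mm9. The deposited score is taken to be -10 log10 of a p-value, with 50 as the lowest value in any list. Scores were compared within 1 list only. The lists give no read counts, so depth is unknown. All lists reach beyond GRCm38 chromosome 1 (195471971 bp), so no gene or sequence of that build was assigned.

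Overlap meant at least 1 bp. Coverage is the percent of a domain's bases within merged peaks of another list. It does not measure the level of a mark, and a lower level inside a called peak would not be seen. Computations used Python 3.11.15, numpy 2.4.6, pandas 2.3.3 and scipy 1.17.1, and interval functions were tested on simulated intervals. Named domains are the 5 widest, the 5 with most factor peaks, the least covered with (5) and without (3) a factor peak, the 3 with most wild-type H3K27me3, up to 5 with H3K27me3 in 1 genotype only, and those next to the threshold. Chromosome windows spanned 1 Mb. The width rule and all lists were chosen with earlier results of these data known. Domains were compared with peaks of the same top score after the data had been seen.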

Additional observations from a re-analysis of the deposited data

How the results depend on the processing

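Of 46 alternative values for the 8 main results, 26 moved by less than their counting error and 20 moved by more. For the share of bases under factor peaks that error counted single bases. Bases of 1 peak are not independent, so the error is too small there. Every alternative of that result is among the 20, and this says little about its stability. The median double-mutant H3K27ac coverage was 100% under every alternative run. Keeping peaks scored at least 100 in each list, 74.5% of domains had either factor, 63.3% both factors and 12.7% E10.5 H3K27me3, and 96.8% of bases under factor peaks were covered. For domains of 7000 bp or more these were 93.0%, 88.0%, 21.0% and 97.8%, and H3K27me3 overlapped 33.5% (wild type) and 31.0% (double mutant). With peaks closer than 1000 bp joined, 989 regions met the width rule in place of 599. Of these 83.7% had either factor, 72.3% both, 20.2% wild-type and 18.1% double-mutant H3K27me3. In this different set 2.12% were under 50% covered, over 4 times the main share, and 95.7% of bases under factor peaks were covered. Those bases were covered to 97.4% on all chromosomes, to 97.2% with H3K27ac lists of equal length (31220 peaks) and to 98.0% without the chromosome 2 domain with most factor peaks, an alternative chosen after seeing the data. Where overlap had to reach 50% of either peak, 12.02% of domains had E10.5 H3K27me3. Apart from what each alternative changes by construction, the cause was not tested. No paired analysis was possible because each group holds 1 library, and no replicate could be left out. Unknown depth limits every statement on a missing peak.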
